A study of Mus musculus with 6 samples.

Results

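Genes of DNA replication and of the G1/S step were followed in C1498 cells, a mouse line of C57BL/6J origin labelled as acute myeloid leukemia (AML), with and without PARP-1 inhibition. The cells received PJ34, a small molecule that blocks PARP enzymes, at 20 μM for 48 h, or PBS for the same time, and total RNA of each group was hybridised to 3 Affymetrix Mouse Gene 1.0 ST arrays. The series asks which genes respond when PARP-1 is inhibited in these cells. A list of 51 genes was taken by function, with earlier results of these data known. Each gene was read from a probe set that the platform table assigns to that gene alone. Where a gene had more than 1, the probe set with the highest mean over the 6 arrays was used. All 51 genes had such a probe set, among 23410 probe sets with a gene that were tested. The values are log2 expression values, and every change below is PJ34 minus PBS on the log2 scale from limma's moderated test, with p adjusted by the Benjamini-Hochberg method over all 23410 probe sets.

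C1498 is a single established line, so all arrays share its genotype and no second line is at hand. The study's text speaks of independent experiments, and the labels number the arrays of a group 1 to 3 without describing the cultures behind them. The p-values measure the spread between these arrays. Array medians lay between 4.41 and 4.46, and arrays of 1 group correlated at 0.992 to 0.995, those of different groups at 0.992 to 0.994. Of 12 myeloid markers, 9 lay below the median of the tested probe sets (4.72). Among them were Mpo (3.81), Elane (3.56), Spi1 (3.44) and Csf1r (3.64), which define granulocytic and monocytic cells. Cebpa (4.86), Cebpe (4.83) and Cd68 (4.97) lay slightly above that median. Cd3e and Cd3g, chains of the T cell receptor complex, lay at 10.5 and 11.1, above 96.9% and 98.0% of the tested probe sets or level with them, whereas Cd3d (4.76) lay near the median and Cd247 (4.003) and Cd2 (4.25) below it. In all, 4 of the 11 measured T and NK markers lay below the median. Probe sets differ in brightness for the same amount of RNA and the values hold no detection calls, so these signals do not settle the cell type. Summed linear signal of the myeloid markers was 181 to 187 on the PBS arrays and 188 to 206 on the PJ34 arrays. That of the 11 T and NK markers was 4063 to 4230 and 4847 to 5039. Within that list Cd7, Cd28 and Gzma rose by 1.66, 1.44 and 0.90 (log2) and passed the adjusted test. The others did not pass, with Cd3e at 0.18, Cd3g at -0.05 and Zap70 at -0.26. Of the myeloid markers, Cd68 alone passed, with a rise of 0.51 (adjusted p = 0.0309 from limma). The part of either shift in the changes below was not tested.

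Cells copy their DNA once per division. In G1 the origin recognition complex, Cdc6 and Cdt1 load the Mcm2 to Mcm7 helicase onto DNA, and at the G1/S step cyclin E and its kinase, with the Dbf4-Cdc7 kinase, start the helicase, after which polymerases, the sliding clamp Pcna and its loader copy both strands. Many of these genes are transcribed by E2F factors at the end of G1, which is why their RNA is widely read as a sign of proliferation.

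The replication genes were bright on these arrays and changed little with PJ34. The mean signal of the 6 arrays ran from 5.89 to 10.7 over the 51 probe sets, with a median of 8.25. All 51 lay above the median of the tested probe sets and 44 above their 75th percentile (7.27). By the adjusted test, 2 of the 51 genes fell, Tk1 (thymidine kinase) and Rfc4 (a subunit of the clamp loader), and 0 rose. In all tested probe sets, 1.72% were higher and 1.34% lower by this rule, and among the probe sets at least as bright as the dimmest of the 51 genes, 5.56% passed in either direction. At an unadjusted p under 0.05 from limma, 7 of the 51 were higher and 9 lower, against 8.95% and 7.74% of all tested probe sets. Of the 9107 probe sets at least as bright as the dimmest of the 51, 1240 were higher and 1185 lower by this unadjusted rule. The median change was -0.03, beside 0.00 over all tested probe sets, and the median size of a change was 0.09, beside 0.08. With bulk RNA, a smaller share of cells in S phase and less RNA per cell cannot be told apart.

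**Figure D1:**
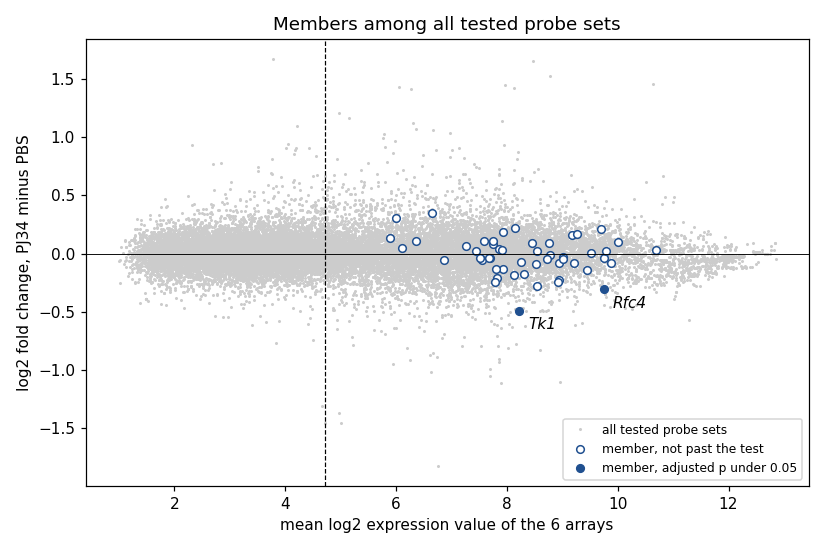
The vertical axis is the log2 change with PJ34 and the horizontal axis the mean log2 signal over the 6 arrays. Grey points are the 23410 tested probe sets, open circles are replication and G1/S genes that did not pass the test, filled circles are Tk1 and Rfc4, and the dashed line marks the median signal of the tested probe sets (4.72); all 51 genes lie to its right and between -0.49 and 0.35.

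The intervals bound, for each gene taken singly, the difference between the groups in the deposited normalized values. For 50 of the 51 genes, the 95% confidence interval from limma lay inside a 1.5-fold change in either direction, Tk1 being the exception. For 37 it lay inside a 1.25-fold change. Over all 23410 tested probe sets, 22635 and 15215 intervals lay inside these bounds, so narrow intervals were not particular to these genes. The groups did not overlap for 22 genes. In 8 all PJ34 arrays lay above all PBS arrays and in 14 they lay below, where 12.6% and 10.9% of all tested probe sets did so. Such separation was more frequent among bright probe sets. Of the 9107 at least as bright as the dimmest of the 51, 1911 lay above and 1752 below. The smallest p that an exact permutation test (two-sided) allows for 3 against 3 arrays is 0.1, so it can call no gene here. The methods' t-test called 14 of the 51 genes at its unadjusted threshold (6 higher and 8 lower), where 15.9% of all tested probe sets passed, and none after adjustment.

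Promoter letters, which the choice of genes did not use, were looked up next. RefSeq promoter windows (GRCm38.p6) of the 250 bases before the annotated start were found for 43 of the genes, 53 windows in all. E2F factors bind letters like TTTCGCGC, TTTGGCGC, TTTCCCGC or TTTGCCGC, and these 8-letter words were searched on both strands. They were found in 12 of the 43 genes (27.9%), against 2.88% of 15614 genes with a window and a tested single-gene probe set, and against 2.16% of all 27025 genes in the table. The letters CCAAT, searched on both strands as the core that NF-Y binds and added after the E2F-like search, were found in 27 of the 43 genes (62.8%), against 38.8% of the genes on the array. The windows of the 43 genes had a median of 61.2% G and C, beside 56.8% for the genes on the array, and no test was made of these shares. The 12 genes were Mcm5, Mcm6, Mcm7, Orc1, Cdc6, Gins3, Rfc3, Pola1, Cdc25a, E2f3, E2f7 and Uhrf1. Origin licensing, the largest role with 12 of the 51 genes, holds 5 of them. Of the 15 matches, 8 began in the 125 of the 250 bases that lie nearest the start, about as an even spread would give. The nearest began at 10 bases and the farthest at 198. In Mcm5 and Mcm6, words on opposite strands overlap each other, and 11 of the 12 genes also hold CCAAT.

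Neither gene that fell holds these letters in its window. The 12 genes with E2F-like letters had a median change of 0.00 (range -0.21 to 0.31) and none passed the test, and the 31 without them had a median of -0.04 (range -0.49 to 0.21) with 2 that fell. A match is no proof of binding, and its absence from 250 bases says nothing of E2F at that gene. The windows of Tk1 and Rfc4 are shown because these genes fell, that of Cdc25a as the G1/S regulator with the highest mean signal, and those of Orc1, Cdc6 and Mcm5 as 3 kinds of E2F-like match, picked after the search. They run 5′ to 3′ along each gene's strand and end at the base before the start; capitals mark E2F-like words, CCAAT and its reverse complement ATTGG, of which the windows of Tk1 and Rfc4 hold none.
Tk1 (chr11:117826015-117826264, minus strand): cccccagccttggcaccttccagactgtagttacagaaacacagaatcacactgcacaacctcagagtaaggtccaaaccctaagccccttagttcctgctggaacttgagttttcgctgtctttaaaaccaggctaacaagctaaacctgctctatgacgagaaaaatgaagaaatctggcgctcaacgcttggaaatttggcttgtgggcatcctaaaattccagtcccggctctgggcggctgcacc
Rfc4 (chr16:23127731-23127980, minus strand): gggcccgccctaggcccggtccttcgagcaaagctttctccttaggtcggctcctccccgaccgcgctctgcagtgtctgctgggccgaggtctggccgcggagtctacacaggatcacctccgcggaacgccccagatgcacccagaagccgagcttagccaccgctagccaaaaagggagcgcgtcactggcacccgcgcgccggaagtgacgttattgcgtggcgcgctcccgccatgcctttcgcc
Cdc25a (chr9:109875329-109875578, plus strand): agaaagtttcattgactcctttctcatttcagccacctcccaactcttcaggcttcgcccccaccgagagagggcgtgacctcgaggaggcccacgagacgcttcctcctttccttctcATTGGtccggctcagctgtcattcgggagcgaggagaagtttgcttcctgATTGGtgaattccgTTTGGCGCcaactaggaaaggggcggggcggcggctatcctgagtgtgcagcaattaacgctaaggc
Orc1 (chr4:108579204-108579453, plus strand): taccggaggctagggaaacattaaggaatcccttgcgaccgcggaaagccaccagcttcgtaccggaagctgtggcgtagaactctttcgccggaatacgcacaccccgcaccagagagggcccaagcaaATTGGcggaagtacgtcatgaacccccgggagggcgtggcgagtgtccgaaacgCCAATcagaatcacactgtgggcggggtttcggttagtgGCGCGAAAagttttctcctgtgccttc
Cdc6 (chr11:98907901-98908150, plus strand): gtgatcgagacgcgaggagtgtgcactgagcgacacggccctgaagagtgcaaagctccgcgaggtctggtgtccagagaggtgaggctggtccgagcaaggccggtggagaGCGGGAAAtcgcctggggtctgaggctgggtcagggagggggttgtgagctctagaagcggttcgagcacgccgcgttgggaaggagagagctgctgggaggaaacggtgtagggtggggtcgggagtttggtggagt
Mcm5 (chr8:75109259-75109508, plus strand): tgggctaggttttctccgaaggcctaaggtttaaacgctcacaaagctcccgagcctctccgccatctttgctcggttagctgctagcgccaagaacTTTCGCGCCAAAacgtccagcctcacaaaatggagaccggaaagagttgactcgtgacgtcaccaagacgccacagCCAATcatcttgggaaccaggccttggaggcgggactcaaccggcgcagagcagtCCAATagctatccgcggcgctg

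**Figure D2:**
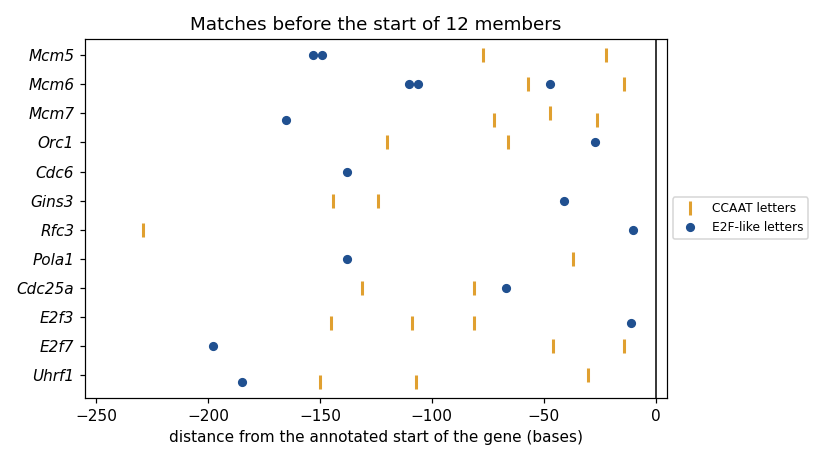
First base of each E2F-like word (blue points) and each CCAAT or ATTGG (yellow bars) by its distance in bases from the annotated start (horizontal axis, 0 is the start) in the 12 genes with an E2F-like word. Genes with 2 windows have the second drawn slightly lower, and the 15 E2F-like words begin between 198 and 10 bases before the start.

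Nucleotide supply held the largest fall. Tk1 phosphorylates thymidine in the salvage pathway and its RNA is known to peak around S phase. Its values were 8.37, 8.57 and 8.44 on the PBS arrays and 8.12, 7.79 and 8.002 on the PJ34 arrays. All PJ34 arrays lay below all PBS arrays, with PJ34 replicate 2 lowest. The change was -0.49 (SE 0.096, 95% confidence interval -0.71 to -0.27), 0.711-fold, with an adjusted p of 0.0341 from limma. A second probe set of Tk1, not used in the counts, read 7.89, 7.83 and 7.89 with PBS and 7.44, 7.26 and 7.37 with PJ34. It fell by 0.51 (SE 0.069, adjusted p = 0.00816 from limma), so both probe sets of the gene passed. When arrays were left out one at a time, the call of the first Tk1 probe set held only without PJ34 replicate 1 (adjusted p = 0.0454 from limma) and had an adjusted p of 0.0596 to 0.128 in the other 5 fits.

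Ribonucleotide reductase, which makes deoxynucleotides, had subunits with differences of opposite sign, neither past the test and not compared with each other. Its small subunit Rrm2 read 9.12, 9.19 and 9.25 with PBS and 9.35, 9.38 and 9.35 with PJ34, a difference of 0.17 (SE 0.063) that did not pass (adjusted p = 0.214 from limma). The large subunit Rrm1 differed by -0.08 (SE 0.061) and thymidylate synthase Tyms, the de novo counterpart of Tk1, by -0.14 (SE 0.069). For both, all PJ34 arrays lay below the PBS arrays, by less than the test could call. Tk1 was thus the only one of these 4 genes past the adjusted test.

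The clamp loader opens Pcna and sets it around DNA. Its subunit Rfc4 read 9.93, 9.88 and 9.89 with PBS and 9.53, 9.61 and 9.63 with PJ34. All PJ34 arrays lay below all PBS arrays, and the spread within each group was small (SD 0.024 for PBS and 0.053 for PJ34). Rfc4 fell by 0.31 (SE 0.062, 95% confidence interval -0.45 to -0.17), to 0.808-fold, with an adjusted p of 0.0365 from limma. That call was lost whichever 1 array was left out (adjusted p = 0.0567 to 0.127 from limma), with changes of -0.33 to -0.28.

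The other small subunits had lower values with PJ34 that did not pass. Rfc5 read 8.60, 8.73 and 8.73 with PBS and 8.58, 8.28 and 8.37 with PJ34, a difference of -0.28 (SE 0.089, adjusted p = 0.15 from limma), and its PJ34 replicate 1 lay close to the PBS arrays. Rfc2 read 8.33, 8.43 and 8.44 against 8.23, 8.15 and 8.28, a difference of -0.18 (SE 0.067, adjusted p = 0.221 from limma). Rfc3 differed by -0.07 (SE 0.064) with overlapping groups. The large subunit Rfc1 (0.02, SE 0.063) and the clamp itself (Pcna, 0.03, SE 0.060) had overlapping groups and intervals that stayed within -0.12 to 0.16 for Rfc1 and -0.11 to 0.16 for Pcna. Whether Rfc4 changed more than the other subunits was not tested. Pcna had the highest mean signal of the 51 genes, at 10.66, 10.70 and 10.65 with PBS and 10.67, 10.74 and 10.68 with PJ34. Its second probe set gave almost the same values and the same change of 0.03.

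Polymerases and primase lay mostly on the lower side, with 7 of 8 genes below 0 and none past the test. Of all 23410 tested probe sets, 11472 lay below 0. The genes were read on the same arrays, so their signs are not independent, and the direction of the set was not tested. The 2 other scalings reuse these arrays and moved the median change of the set only from -0.09 to -0.11 and -0.10. That 7 of the 8 were below 0 there as well is therefore no separate support. Prim1, the catalytic primase subunit that starts each new strand, came nearest to a call. It read 9.04, 9.06 and 9.05 with PBS and 8.77, 8.86 and 8.80 with PJ34. These 6 values formed 2 tight sets, and the difference was -0.24 (SE 0.060, adjusted p = 0.0768 from limma). Pold1, the catalytic subunit of polymerase delta, read 7.83, 7.98 and 7.88 against 7.81, 7.56 and 7.61, with PJ34 replicate 1 next to the PBS arrays (-0.24, SE 0.082, adjusted p = 0.18 from limma). Pola1, the catalytic subunit of polymerase alpha, read 7.93, 7.99 and 7.85 against 7.65, 7.86 and 7.65, and its groups overlapped through PJ34 replicate 2 (-0.21, SE 0.080, adjusted p = 0.231 from limma).

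The other 5 genes of the set lay closer to 0. The differences were -0.05 for Pola2, -0.08 for Prim2, -0.08 for Pold2 and -0.09 for Pole, the catalytic subunit of polymerase epsilon. Pole2, its second subunit, was the 1 gene of the set above 0, at 0.04 (SE 0.085). For Pole and Pold2 all PJ34 arrays lay below the PBS arrays, at distances of under 0.1 between the group means. Of the enzymes that join Okazaki fragments, the flap nuclease Fen1 differed by 0.11 (SE 0.093) and DNA ligase Lig1 by -0.04 (SE 0.069), with overlapping groups.

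**Figure D3:**
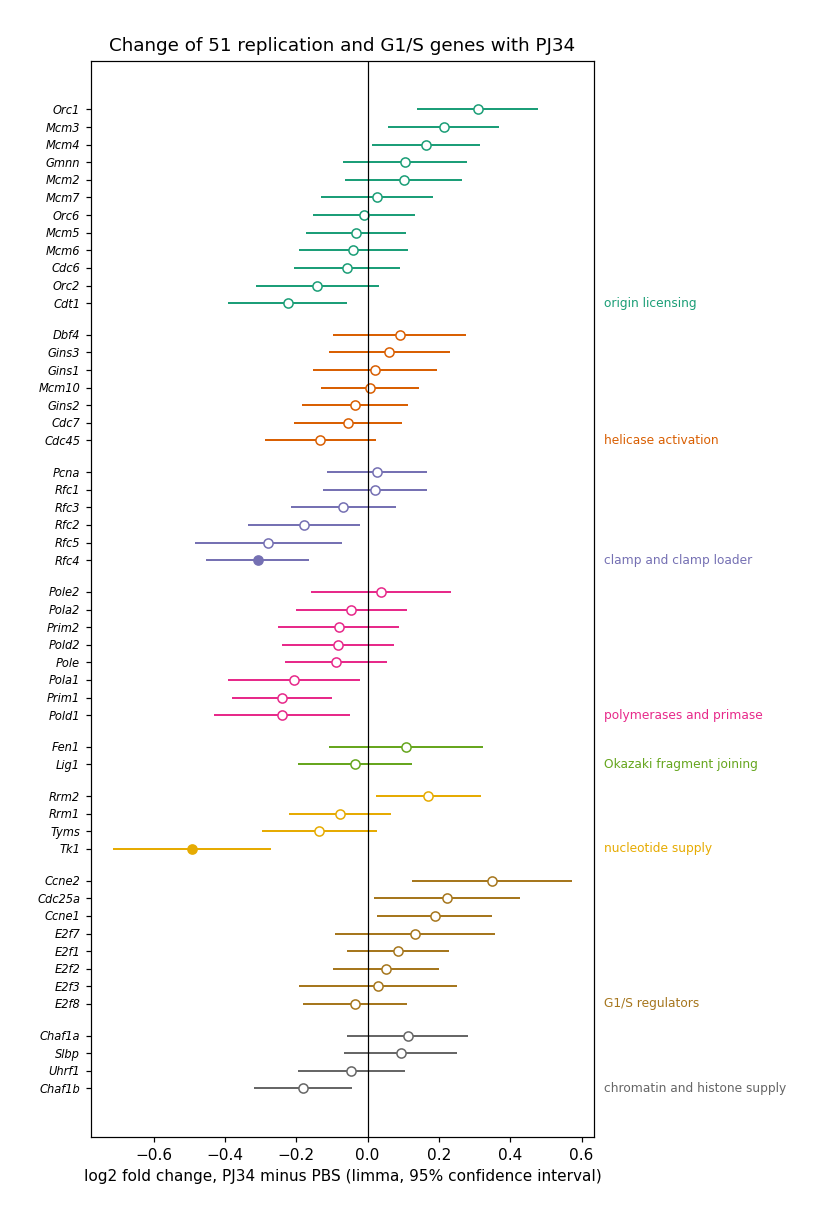
The log2 change with PJ34 (horizontal axis) of each of the 51 genes, 1 row per gene, coloured and grouped by role. Points are limma estimates, bars are 95% confidence intervals, and filled points passed the test (Tk1 at -0.49 and Rfc4 at -0.31); polymerases and the clamp loader lie mainly left of 0 and G1/S regulators mainly right of it.

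G1/S regulators lay on the other side, with 7 of 8 genes above 0 and none past the test. Of all 23410 tested probe sets, 11938 lay above 0. The 2 other scalings, which reuse the same arrays, also left 7 of 8 above 0. The direction of this set was not tested either, and the genes were chosen with earlier results of these data known. Ccne2, one of the E-type cyclins that activate Cdk2, had the largest difference above 0 of all 51 genes. It read 6.46, 6.48 and 6.48 with PBS and 6.70, 7.05 and 6.72 with PJ34, where replicate 2 stood above the other PJ34 arrays. The difference was 0.35 (SE 0.097, adjusted p = 0.104 from limma), and 0.24 without PJ34 replicate 2. Its paralog Ccne1 read 7.79, 7.79 and 7.92 against 8.02, 8.09 and 7.96 (0.19, SE 0.070, adjusted p = 0.214 from limma). Both cyclins were thus higher on all PJ34 arrays than on any PBS array. Cdc25a, the phosphatase that frees Cdk2 of inhibiting phosphates, read 8.07, 8.03 and 7.98 against 8.13, 8.44 and 8.19 (0.22, SE 0.088, adjusted p = 0.245 from limma), again with replicate 2 highest. Without that replicate the Cdc25a difference was 0.13.

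The 5 E2F genes had smaller differences than the cyclins and Cdc25a. The activators E2f1, E2f2 and E2f3 differed by 0.09, 0.05 and 0.03, and the groups were separate for E2f1 alone. The repressors E2f7 and E2f8 differed by 0.13 (SE 0.097) and -0.04 (SE 0.063). E2f7 had the dimmest probe set of the 51 genes, at 5.64, 5.98 and 5.86 with PBS and 6.07, 5.93 and 5.88 with PJ34, and its groups overlapped. A second probe set of E2f3 differed by -0.08, the opposite sign to the first, and neither passed.

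Origin licensing genes divided evenly, with 6 of 12 above 0 and 6 below. Orc1, the largest subunit of the origin recognition complex, read 5.85, 5.80 and 5.90 with PBS and 6.11, 6.28 and 6.09 with PJ34. All PJ34 arrays lay above the PBS arrays, and the difference of 0.31 (SE 0.073) missed the threshold (adjusted p = 0.0662 from limma). Cdt1, which brings the helicase to the origin, lay on the other side. It read 8.94, 9.09 and 9.11 against 8.89, 8.78 and 8.80 (-0.22, SE 0.072, adjusted p = 0.15 from limma), with PBS replicate 1 near the PJ34 arrays. Its inhibitor geminin, encoded by Gmnn, differed by 0.10 (SE 0.075), and Cdc6 by -0.06 (SE 0.064). Orc2 (-0.14, SE 0.074) had separate groups and Orc6 (-0.01, SE 0.061) did not.

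The 6 genes of the Mcm2 to Mcm7 helicase had differences from -0.04 to 0.21. Mcm3 read 9.53, 9.62 and 9.64 with PBS and 9.81, 9.87 and 9.74 with PJ34 (0.21, SE 0.067, adjusted p = 0.144 from limma). Mcm4 read 9.09 on each PBS array and 9.21, 9.35 and 9.20 with PJ34 (0.16, SE 0.065, adjusted p = 0.252 from limma). For these 2 subunits all PJ34 arrays lay above the PBS arrays, and for the other 4 the groups overlapped. Mcm2 differed by 0.10, Mcm7 by 0.03, Mcm5 by -0.03 and Mcm6 by -0.04. The 95% confidence intervals of Mcm5, Mcm6 and Mcm7 stayed between -0.19 and 0.18.

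Helicase activation genes had the smallest median size of a difference among the 8 roles, at 0.06. For all 7 the 95% confidence interval lay inside a 1.25-fold change, as it did for 15215 of all 23410 tested probe sets. None of the 7 reached an unadjusted p under 0.05. Mcm10, needed to start the loaded helicase, differed by 0.01 (SE 0.059), with PBS arrays at 9.51, 9.53 and 9.52 and PJ34 arrays at 9.52, 9.56 and 9.49. Gins1, Gins2 and Gins3, subunits of the GINS complex, differed by 0.02, -0.04 and 0.06, and their helicase partner Cdc45 by -0.13 (SE 0.067) with all PJ34 arrays below the PBS arrays. The kinase Cdc7 differed by -0.06, and its activator Dbf4 by 0.09, where PJ34 replicate 2 (8.66) stood above the other 2 (8.39 and 8.46).

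Among genes that rebuild chromatin behind the fork, the subunits of chromatin assembly factor 1 lay on opposite sides. Chaf1b read 8.21, 8.24 and 8.24 with PBS and 8.07, 8.06 and 8.01 with PJ34, 2 sets that did not overlap (-0.18, SE 0.059, adjusted p = 0.161 from limma). Chaf1a differed by 0.11 (SE 0.073) with overlapping groups. Uhrf1, which carries DNA methylation through replication, differed by -0.05, and Slbp, which binds the stem loop of histone mRNAs, by 0.09. A second Slbp probe set gave 0.10.

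**Figure D4:**
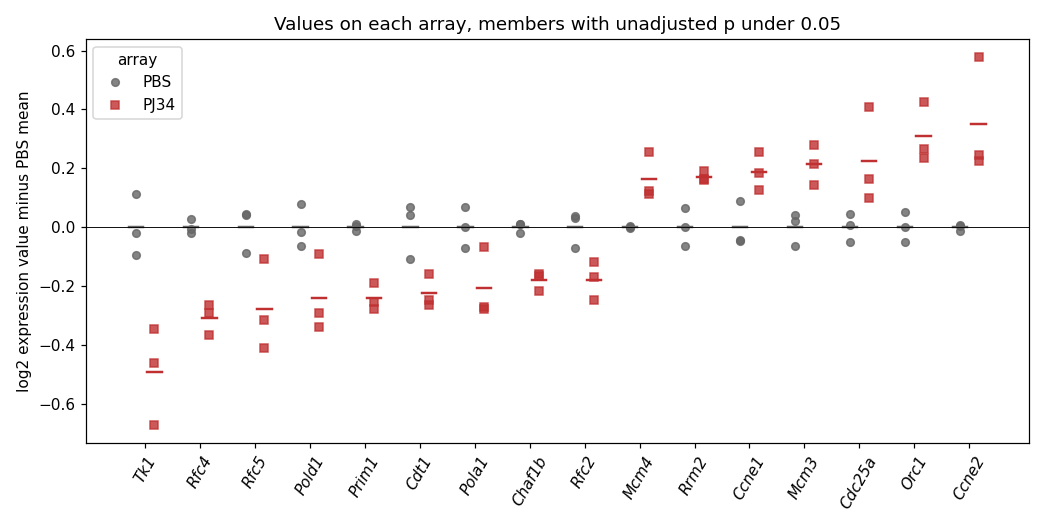
Log2 expression value minus the PBS mean of the same gene (vertical axis) on each of the 3 PBS (grey circles) and 3 PJ34 (red squares) arrays for the 16 genes with an unadjusted p under 0.05, with lines at the group means. Groups overlap for Pola1 alone, and PJ34 replicate 2 is the highest point of Ccne2 (7.05 before the PBS mean is taken off) and the lowest of Tk1 (7.79).

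PJ34 replicate 2 most often lay apart. Among the 3 PJ34 arrays, it was the farthest from the mean of the other 2 for 31 of the 51 genes, where it was so for 46.1% of all tested probe sets. PBS replicate 1 was the farthest in its group for 26 of the 51, beside 39.0% of all. The sign of the change stayed the same in all 6 fits that left out 1 array for 42 of the 51 genes, beside 61.6% of all tested probe sets. No gene but Tk1 passed the test in any of those 6 fits.

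Other genes of the same processes, outside the 51, were read in the same way. Of 86 listed, 83 had a single-gene probe set, and 2 rose and 2 fell, with a median change of -0.02. Over all tested probe sets, 1.72% rose and 1.34% fell. At an unadjusted p under 0.05 from limma, 7 were higher and 14 lower, where 8.95% and 7.74% of all tested probe sets were. Pole4, a small accessory subunit of polymerase epsilon, read 8.39, 8.49 and 8.44 with PBS and 8.75, 8.83 and 8.76 with PJ34 and rose by 0.34 (SE 0.064, adjusted p = 0.0283 from limma). Topoisomerase I, Top1, which relieves supercoils ahead of the fork, read 8.42, 8.48 and 8.40 against 8.75, 8.87 and 8.69 and rose by 0.34 (SE 0.070, adjusted p = 0.0431 from limma). Mtbp, which acts with treslin in origin firing, read 8.86, 8.86 and 8.80 against 8.34, 8.59 and 8.50 and fell by 0.37 (SE 0.077, adjusted p = 0.0443 from limma). Rbl1, which encodes the pocket protein p107, fell by 0.37 (SE 0.072, adjusted p = 0.0339 from limma), from 8.03, 8.06 and 7.93 to 7.61, 7.74 and 7.57. For each of the 4 the groups did not overlap. Leaving out 1 array at a time, Mtbp and Rbl1 each passed in 1 of the 6 fits and Pole4 and Top1 in none.

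By list, 2 of 34 other fork and origin genes rose and 1 fell, 1 of 22 other G1/S control genes fell, and none of 15 other nucleotide supply genes or of 12 other chromatin duplication genes passed. At an unadjusted p under 0.05 from limma, 2 of the nucleotide genes and 2 of the chromatin genes were lower and none higher. Over all tested probe sets, 7.74% were lower and 8.95% higher by that rule. The methods' t-test passed none of these genes after adjustment. The other fork and origin genes had 6 higher and 9 lower by the unadjusted rule. Of the 34, 24 lay below 0, where 11472 of all 23410 tested probe sets did, and their median change was -0.06. The direction of these lists was not tested. Of the other G1/S control genes, 9 lay above 0 and 13 below, with a median change of -0.02, where 7 of the 8 G1/S regulators among the 51 lay above. The differences farthest from 0 in these lists were not called. They were those of Pold4, a small subunit of polymerase delta (-0.43, SE 0.097, adjusted p = 0.0561 from limma), and Recql4, a helicase that acts in origin firing (-0.42, SE 0.092, adjusted p = 0.0517 from limma), both named after their values were seen.

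How many of the 51 genes were called depended on the fit. With an intensity trend and robust eBayes, 4 were higher (Mcm3, Orc1, Rrm2 and Ccne2) and 6 lower (Cdt1, Rfc4, Rfc5, Prim1, Tk1 and Chaf1b), and without dim probe sets 3 were higher and 6 lower. With all 35556 probe sets tested, with the methods' t-test adjusted, or with the replicate number as a block, none was called. Tk1 had an adjusted p of 0.00133 to 0.169 and Rfc4 of 0.000684 to 0.127 over the 15 alternatives. The direction was kept in each. Many of these settings change only the test, and the groups of both genes did not overlap, so most could not have reversed it.

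**Figure D5:**
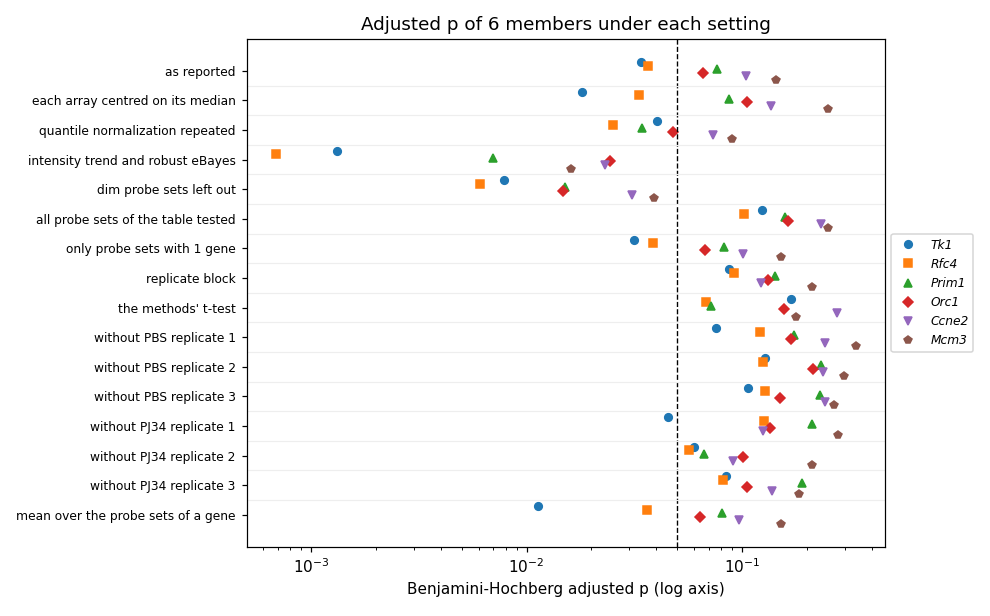
Adjusted p (horizontal axis, log scale) of Tk1, Rfc4, Prim1, Orc1, Ccne2 and Mcm3 as reported and under each of 15 alternative settings (rows), with the dashed line at 0.05. Tk1 lies left of the line in 7 of the alternatives, Rfc4 in 6, Prim1 and Orc1 in 3 each, and Ccne2 and Mcm3 in 2 each.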

How the data were processed

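Gene expression was measured in C1498 cells on 6 Affymetrix Mouse Gene 1.0 ST arrays, 3 after PJ34 and 3 after PBS, grouped by the labels. Affymetrix Expression Console 1.3.1 and RMA are named in the submitters' processing notes. The authors deposited log2 expression values per probe set, which RMA makes by background correction, quantile normalization and summary over probes. RMA compresses differences of dim probe sets, and the values hold no detection calls. They were used as deposited. The genome build behind the probe sets was not given in the sources used here.

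Of 35556 probe sets, the platform table gives 21789 a single gene and 1621 several (23410 together), and 12146 have no gene listed. All 51 symbols matched RefSeq by gene number. The 23410 were fitted with limma 3.58.1 in R 4.3.3 (lmFit, eBayes; PJ34 minus PBS) and p was adjusted by Benjamini-Hochberg, with 0.05 as the threshold. The fit was tested on simulated data with planted changes of 1.5-fold or more. None of the 51 genes changed that far, so the simulation does not cover changes of their size. Of the 51 genes, those past an adjusted or unadjusted p of 0.05, and the extremes, are given with all values, and of the related genes those past the adjusted test. The genes and lists were chosen with earlier results of these data known. Alternatives were median centring, repeated quantile normalization, an intensity trend with robust eBayes, filters on probe sets, averaging of a gene's probe sets, a replicate block, the methods' t-test and leaving out each array. Precision is limited by the number of arrays.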

Additional observations from a re-analysis of the deposited data

How the results depend on the processing

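Counts of calls depended on the setting. The 16 genes of the 51 with an unadjusted p under 0.05 and the 4 related genes that were called kept their direction in all 15 alternatives. That is little support, because settings that change only the test or the probe sets tested leave the change itself as it was. Leaving out 1 array could not reverse it either where the groups did not overlap, as for all of these genes but Pola1. Genes near 0 did not all keep their sign. In every fit that left out 1 array, 42 of the 51 kept it. With arrays centred on their medians, 22 in place of 24 lay above 0. Of the 51 genes 0 were higher and 2 lower as reported. Of the 83 related genes 2 were higher and 2 lower, and of all tested probe sets 402 were higher and 314 lower. With an intensity trend and robust eBayes, 4 of the 51 were higher and 6 lower, 5 and 8 of the related genes, and 1008 and 920 of all. Without dim probe sets, where fewer are adjusted for, 3 and 6 of the 51, 5 and 7 of the related genes, and 923 and 836 of all were called. With repeated quantile normalization, 1 of the 51 was higher and 3 lower, 3 and 5 of the related genes, and 512 and 462 of all. Centring arrays on their medians gave 0 of the 51 higher and 2 lower, and 1 related gene higher and 4 lower. Averaging probe sets per gene gave 0 and 2 of the 51, and 2 and 4 of the related genes. Testing all 35556 probe sets called 0 of the 51 and 0 related genes in either direction, and 112 higher and 76 lower in all. The methods' t-test after adjustment also called 0 and 0, with 78 higher and 62 lower in all. With the replicate number as a block, 0 of the 51 and 0 related genes were called, and 219 and 140 in all. Deviations of same-numbered arrays correlated at -0.01, 0.13 and -0.01, and 2 of 6 arrays correlated best with their own number, so the numbers were not taken as pairs. Whether arrays of 1 number share an experiment is not stated in the labels. Leaving out 1 array at a time gave 0 higher and 0 to 1 lower of the 51, 0 higher and 0 to 2 lower related genes, and 143 to 281 higher and 79 to 320 lower in all. The cause of these shifts was not tested. With 3 arrays per group, differences such as those of Orc1 and Prim1 stand near the limit of what the test can call.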
